A study of Mus musculus with 2 samples.

Results

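The genes described here are the protein-coding members of the 4 Hox clusters of the mouse, chosen by symbol from the GENCODE annotation of mm10 as Hoxa, Hoxb, Hoxc or Hoxd followed by a number. They are 39 of 21938 protein-coding genes: 11 in the Hoxa cluster, 10 in Hoxb and 9 each in Hoxc and Hoxd. Chromatin accessibility was measured by DNase-seq, which maps where the nuclease DNase I cuts exposed DNA, in spleen tissue of male B6CASTF1/J mice aged 4 days. This strain is the first-generation hybrid of C57BL/6J and CAST/EiJ. Both libraries belong to 1 group, labelled as biological replicates 1 and 2, and no treatment or second genotype was sampled. There was therefore no contrast between conditions and no test over samples, and Hox values are given beside those of all protein-coding genes. Read numbers are not known for any value.

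Hox genes encode homeodomain transcription factors that give the cells of an embryo their position along the body axis. The genes of a cluster lie in the order in which they are switched on, with paralogue 1 at the 3′ end and paralogue 13 at the 5′ end, and genes of equal number in different clusters descend from a common ancestor. Polycomb complexes keep the clusters silent where they are not used, and proteins of the Trithorax group keep them active where they are. In blood formation, Hoxa9, Hoxa10 and Hoxb4 are known from stem and progenitor cells, and Hoxb5 from long-term stem cells of the mouse. In bulk tissue, fewer cells of a type and less accessible DNA per cell cannot be told apart, so every value below is an average over all cells of the spleen.

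Promoters of Hox genes were mostly closed. Overlapping peaks of both libraries form a shared region, and a gene with such a region no more than 1 kb from one of its transcription start sites was counted as open. By this measure 8 of 39 Hox promoters were open (20.5%), against 59.7% of all protein-coding genes. Peaks of replicate 1 lay within 1 kb of 11 Hox genes (28.2%), against 62.4% of all genes. Peaks of replicate 2 lay there at 9 Hox genes (23.1%), against 62.8% of all genes. A stricter peak of each library was found at 4 Hox genes (10.3%), against 54.8% of all genes. Footprints, short stretches inside open chromatin that are protected from the enzyme, were found in each library at 7 Hox genes (17.9%), against 59.0% of all genes.

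The gap was wider among promoters rich in CpG dinucleotides, which are open in most tissues. The ratio of observed to expected CpG in the 1 kb on the most upstream start site had a median of 0.678 over Hox genes (0.256 to 0.996) and of 0.571 over all genes. Of the 28 Hox genes with a ratio of at least 0.5, 6 were open (21.4%), against 89.2% of 12091 genes of that kind. No peak of either library lay near 19 of these 28 Hox genes (67.9%), against 784 of all 12091 (6.48%). The bars by kind of call show the Hox genes lower in each class of call, and higher in the class without a peak.

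**Figure D1:**
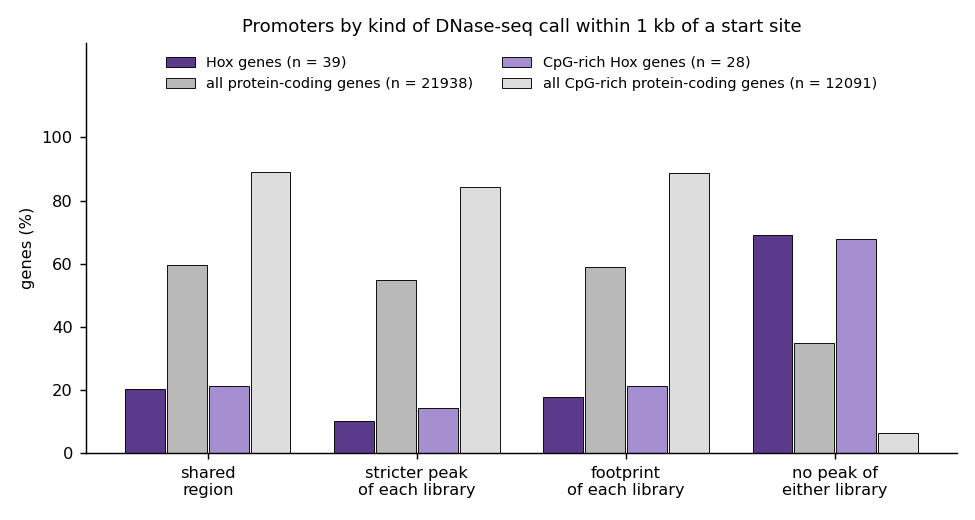
Percentage of genes (vertical axis) with a shared region, with a stricter peak of each library, with a footprint of each library or with no peak of either library within 1 kb of a start site. Bars stand for Hox genes, all protein-coding genes, and the CpG-rich genes of both. A shared region was found at 20.5% of Hox genes, against 59.7% of all genes, and no peak at 69.2% of Hox genes.

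The open promoters were not spread evenly over the clusters. In the Hoxa cluster 5 of 11 were open, among them Hoxa4, Hoxa5, Hoxa7 and Hoxa10. In the Hoxb cluster 2 of 10 were open (Hoxb4 and Hoxb5), in Hoxc 1 of 9 (Hoxc10) and in Hoxd 0 of 9. By paralogue number, 1 of 8 genes numbered 1 to 3 was open, 5 of 15 numbered 4 to 8 and 2 of 16 numbered 9 to 13. Paralogues 4, 5 and 10 each had 2 open members. None of the genes numbered 6, 8, 9, 11, 12 or 13 was open, although some of these had a peak in 1 library. With so few genes in each cluster or class, these counts are a description and were not tested.

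The strongest Hox promoter was that of Hoxa4, a gene of the anterior trunk, with a signal of 2.83 in replicate 1 and 2.46 in replicate 2. Signal is the authors' value per peak on a scale that is not stated. Hoxa10, which acts in the posterior trunk and in the uterus, followed with 2.15 in replicate 1 and 2.14 in replicate 2. Its region lay at the more upstream of its start sites, and with only the start site of its longest coding transcript Hoxa10 was not open. Hoxc10, a gene of the lumbar region and hindlimb, had 1.13 and 1.16 in replicates 1 and 2. These 3 were among the 4 genes with a stricter peak of each library, and both libraries gave nearly the same value at Hoxa10 and at Hoxc10.

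The other open promoters were weaker. Hoxb5 had a signal of 0.683 in replicate 1 and 1.08 in replicate 2. Hoxa7 had 0.871 in replicate 1 and 0.805 in replicate 2 at the start sites used here. Hoxa5, needed for lung and rib development, had 0.823 in replicate 1 and 0.666 in replicate 2. These values lie close to each other, and the 2 libraries put the 3 genes in different orders. Hoxb4, known for its effect on the self-renewal of blood stem cells, was lowest with 0.586 in replicate 1 and 0.560 in replicate 2. Hoxa5 and Hoxb5 had a stricter peak in replicate 2 alone, and Hoxa7 and Hoxb4 in neither library.

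Open Hox promoters were weak beside other open promoters. Their mean signal over the libraries had a median of 1.00 and ran between 0.573 ± 0.0184 at Hoxb4 and 2.64 ± 0.263 at Hoxa4 (SD, n = 2). The median over all open promoters was 5.91, with quartiles of 1.91 and 11.4, and it was 7.12 over the CpG-rich ones. Hoxa4 was above 30.3% of all open promoters, Hoxa10 above 26.9% and Hoxc10 above 17.4%. Hoxb4 was above 7.78%. All 8 thus stood below the median of open promoters, and the plot by paralogue number shows no Hox value above 3.

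**Figure D2:**
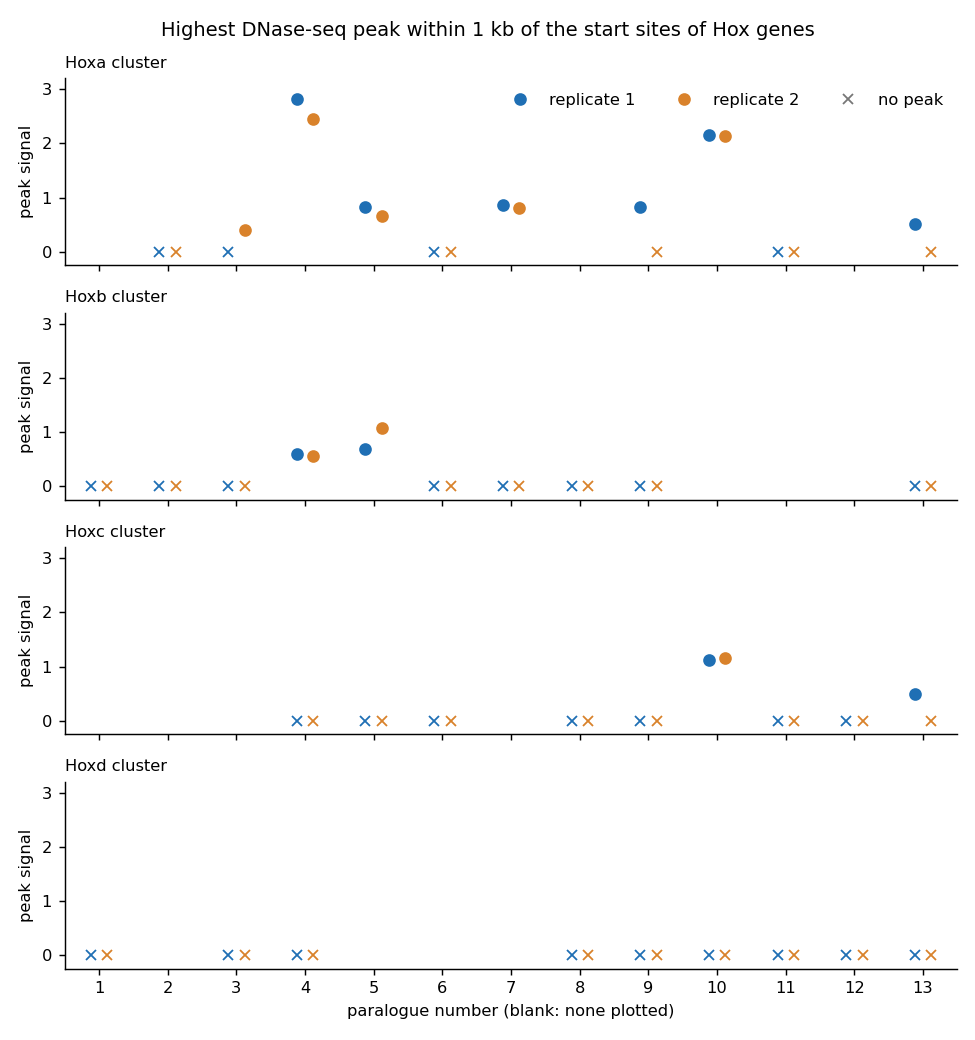
Signal of the highest peak within 1 kb of a start site (vertical axis, the authors' scale) for each Hox gene by paralogue number (horizontal axis), with 1 panel per cluster and 1 colour per library. Crosses at 0 mark genes with no peak in that library, and 1 gene is not plotted. Hoxa4 and Hoxa10 are highest, and all 9 Hoxd genes are without a peak.

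A peak in 1 library alone was found at 4 further Hox promoters. Hoxa9, a regulator of blood progenitors and a frequent partner in leukaemia, had a peak of 0.817 in replicate 1. That peak lay at the start site of a second, shorter transcript, downstream of that of the longest coding one. Hoxa13 and Hoxc13, the most posterior genes of their clusters, had peaks of 0.511 and 0.489 in replicate 1. Hoxa3, which acts in the thymus and the pharyngeal arches, had a peak of 0.409 in replicate 2, at the start of a transcript that begins upstream of Hoxa6. Over the whole genome, 77.8% of the 18701 peaks of replicate 1 with signals between 0.489 and 0.817 overlapped a peak of replicate 2. Of the 382 peaks of replicate 2 at 0.409, 50.5% overlapped one of replicate 1. Peaks of this size were thus often, but not always, found in both libraries.

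The remaining 27 Hox promoters had no peak in either library. Among them were Hoxa6 and Hoxa11, all of Hoxb but Hoxb4 and Hoxb5, all of Hoxc but Hoxc10 and Hoxc13, and the whole of Hoxd. The deposited lists of positions with a false discovery rate (FDR) below 0.05 give a finer reading of these. Of the 27, no such base lay within 1 kb in replicate 1 for 27 genes and in replicate 2 for 25. The exceptions were Hoxc5 with 10 bases and Hoxc12 with 1 base in replicate 2. Over all 7674 genes without a peak, no such base was found for 7530 in replicate 1 and 7505 in replicate 2. Sequence that occurs more than once in the genome was rare around the Hox start sites, with a median of 0.0507% of 31-base words (0 to 4.25%, the highest at Hoxc8). It was counted for the Hox genes alone and on the reference sequence, and its part in the missing peaks was not tested.

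The regions at the promoters of Hoxa4 and Hoxb5 are shown because each was the strongest promoter region with footprints in its cluster that touches no annotated untranslated region. The last few bases of the Hoxb5 region lie in an exon of a Hoxb5 transcript with a retained intron and no coding sequence. Capitals mark bases inside footprints of both libraries, and all are given 5′ to 3′ on the plus strand of mm10.
Hoxa4 promoter, chr6:52191861-52192060: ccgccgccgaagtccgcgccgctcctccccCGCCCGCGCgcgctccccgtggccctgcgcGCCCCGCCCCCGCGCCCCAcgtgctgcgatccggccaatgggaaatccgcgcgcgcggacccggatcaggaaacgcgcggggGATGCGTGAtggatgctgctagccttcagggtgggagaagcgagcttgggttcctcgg
Hoxb5 promoter, chr11:96303141-96303340: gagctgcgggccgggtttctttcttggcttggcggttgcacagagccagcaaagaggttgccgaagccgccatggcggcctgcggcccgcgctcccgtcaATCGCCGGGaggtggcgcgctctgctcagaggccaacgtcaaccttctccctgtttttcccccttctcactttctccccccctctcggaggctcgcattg
The midpoint of the Hoxa4 region lay 207 bp upstream of the start site, inside introns of longer transcripts of Hoxa3 and of the antisense gene Hoxaas3. Its longest footprint of both libraries covered 19 bases, GCCCCGCCCCCGCGCCCCA, which hold GGGCGG, the core of SP and KLF sites, on the minus strand. The Hoxb5 region was centred 272 bp upstream of the start site of Hoxb5, and the Hoxc10 region 196 bp upstream of that of Hoxc10.

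The clusters as a whole were not poor in accessible regions, mainly through Hoxa. Between the first and the last Hox gene, the 4 clusters held 21 shared regions in 491.8 kb, or 4.27 per 100 kb, against 2.39 per 100 kb over all autosomes. The 100 kb on either side of the clusters held 17, or 2.13 per 100 kb. The Hoxa cluster on chromosome 6 had 9 regions in 105.3 kb, or 8.55 per 100 kb. Hoxb (chr11:96194316-96368256) had 7 in 173.9 kb, or 4.02 per 100 kb. Hoxd (chr2:74668310-74765142) had 3, or 3.10 per 100 kb, and Hoxc (chr15:102921103-103036852) had 2, or 1.73 per 100 kb. Hoxa, Hoxb and Hoxd were above the autosomal density and Hoxc below it, but with the stricter lists the side changed for all but Hoxa. Stricter shared regions numbered 5.70 per 100 kb in Hoxa, 1.15 in Hoxb, 1.73 in Hoxc and 1.03 in Hoxd, against 1.66 over the autosomes. Hoxd also had 3.10 peaks of each library per 100 kb, against 3.16 in replicate 1 and 3.49 in replicate 2 over the autosomes. Footprints numbered 11.8 per 100 kb in replicate 1 and 13.01 in replicate 2 over the 4 clusters, against 8.61 and 10.02 over the autosomes. Hoxa alone was above the autosomes, with 29.4 in replicate 1 and 34.2 in replicate 2. Hoxb (8.05 and 9.20), Hoxc (6.91 and 6.05) and Hoxd (5.16 in each) were below them in both libraries.

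The clusters also differ from the autosomes in sequence, and the part of that difference in the densities was not tested. Repeats masked in the reference made up 13.4% of the Hoxa cluster, 24.6% of Hoxb, 15.9% of Hoxc and 14.4% of Hoxd, against 33.5% of the autosomes. CpG dinucleotides numbered 29.9 per kb in Hoxa, 20.9 in Hoxb, 21.5 in Hoxc and 28.0 in Hoxd, against 8.51 over the autosomes. Counted around each gene, a Hox gene had a median of 4 shared regions within 50 kb (1 to 8), against 5 for all protein-coding genes (0 to 55).

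**Figure D3:**
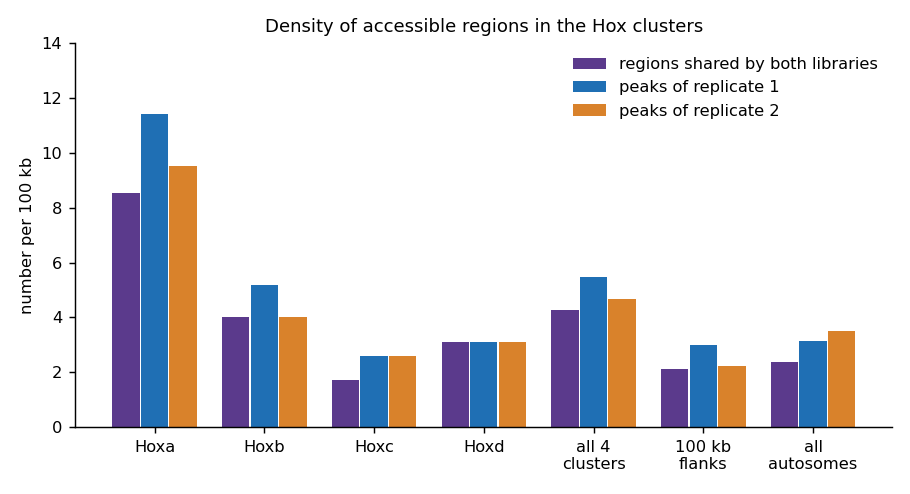
Number of shared regions and of peaks of each library per 100 kb (vertical axis) in each Hox cluster, in all 4 clusters, in the 100 kb on either side of them and over all autosomes. Hoxa is highest with 8.55 shared regions per 100 kb, and Hoxc lowest with 1.73, against 2.39 over the autosomes.

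Of the 21 regions inside the clusters, 8 lay within 1 kb of a Hox start site and 13 farther away. Their signals were alike: the mean signal had a median of 1.00 at the 8 near regions (0.573 to 2.64) and of 1.02 at the 13 others (0.566 to 2.90). The median over the 21 was 1.02, against 1.04 over all 60596 shared regions of the genome. A stricter peak of each library covered 11 of the 21 (52.4%), against 69.1% of all shared regions. Footprints of each library were found in 18 of them (85.7%), against 87.3% of all. The median signal of the regions of the Hox clusters was thus near that of all shared regions, while a smaller share of them had stricter peaks.

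A shared region lay between paralogue 9 and the next gene in every cluster. Of the 35 intervals between the coding starts of neighbouring Hox genes, 18 held a shared region and 17 did not, and this position was picked out after the values were seen. In Hoxc the region was the strongest of the cluster, 2.81 in replicate 1 and 2.99 in replicate 2, and lay 2997 bp upstream of the start site of Hoxc8. In Hoxb it was again the strongest, 1.20 in replicate 1 and 1.49 in replicate 2, and lay 2925 bp upstream of Hoxb8. In Hoxd it had 0.785 in replicate 1 and 0.956 in replicate 2 and lay 2212 bp upstream of Hoxd8. The Hoxa cluster has no paralogue 8, and 2 regions lay between Hoxa9 and Hoxa7. One was the weaker region at the Hoxa7 promoter given above. The other had 2.02 in replicate 1 and 2.58 in replicate 2 and lay 3109 bp upstream of the nearest Hoxa7 start site used here, over the 5′ end of a longer Hoxa7 transcript. The regions of Hoxb, Hoxc and Hoxd and the stronger one of Hoxa were higher in replicate 2, and the Hoxa7 promoter was lower. None of the promoters of Hoxb8, Hoxc8 and Hoxd8, genes of the thoracic region, was open.

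The regions between paralogues 9 and 8 are shown because each held a footprint of both libraries, given in capitals on the plus strand of mm10, along which Hoxb, Hoxc and Hoxd are all transcribed.
Between Hoxb9 and Hoxb8, chr11:96278901-96279060: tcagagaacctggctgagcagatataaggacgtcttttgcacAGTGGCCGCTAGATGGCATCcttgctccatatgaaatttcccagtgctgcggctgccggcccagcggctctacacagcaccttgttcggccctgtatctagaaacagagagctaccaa
Between Hoxc9 and Hoxc8, chr15:102987521-102987700: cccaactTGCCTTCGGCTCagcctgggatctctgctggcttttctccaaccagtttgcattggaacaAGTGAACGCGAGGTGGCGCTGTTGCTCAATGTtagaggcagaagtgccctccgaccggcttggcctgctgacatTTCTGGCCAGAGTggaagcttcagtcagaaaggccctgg
Between Hoxd9 and Hoxd8, chr2:74702321-74702487: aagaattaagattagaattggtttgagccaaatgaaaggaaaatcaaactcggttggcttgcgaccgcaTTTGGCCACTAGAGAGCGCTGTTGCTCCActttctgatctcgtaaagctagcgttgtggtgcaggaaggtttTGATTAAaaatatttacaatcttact
The longest footprint was 20 bases in Hoxb, AGTGGCCGCTAGATGGCATC, 32 bases in Hoxc, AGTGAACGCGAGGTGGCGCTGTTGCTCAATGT, and 29 bases in Hoxd, TTTGGCCACTAGAGAGCGCTGTTGCTCCA. The Hoxc and Hoxd regions shared 12 bases in a row, gcgctgttgctc, and these lay inside the footprint of each. The Hoxb region shared at most 8 bases in a row with either. The Hoxb region and the Hoxd region were intergenic, and the Hoxc region lay in an intron of a long transcript of Hoxc5.

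Other regions of the clusters lay more than 1 kb from the Hox start sites used here. In the Hoxd cluster the strongest had 2.04 in replicate 1 and 1.88 in replicate 2. It lay in an exon of the antisense long non-coding RNA gene Hoxd3os1, between the coding starts of Hoxd8 and Hoxd4. In the Hoxa cluster a region between Hoxa13 and Hoxa11 had 1.43 in replicate 1 and 1.90 in replicate 2, and lay 3672 bp downstream of the start site of Hoxa13. A region between Hoxa7 and Hoxa6 had 1.44 in replicate 1 and 1.34 in replicate 2. Inside the clusters, the ratio of the libraries was farthest from 1 at a region of the long stretch between Hoxb13 and Hoxb9, with 0.376 in replicate 1 and 0.756 in replicate 2.
Between Hoxa13 and Hoxa11, chr6:52257041-52257220: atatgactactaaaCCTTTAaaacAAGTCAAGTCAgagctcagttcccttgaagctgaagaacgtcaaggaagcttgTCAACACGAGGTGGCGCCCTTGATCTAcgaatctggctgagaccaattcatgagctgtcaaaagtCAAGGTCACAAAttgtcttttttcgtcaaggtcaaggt
Between Hoxd8 and Hoxd4, chr2:74715861-74716040: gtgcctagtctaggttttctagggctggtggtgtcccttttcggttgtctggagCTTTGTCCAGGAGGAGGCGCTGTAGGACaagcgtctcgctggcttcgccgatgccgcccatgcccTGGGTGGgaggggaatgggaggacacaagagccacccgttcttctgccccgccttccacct
These 2 are shown for their footprints, in capitals as above. The longest was TCAACACGAGGTGGCGCCCTTGATCTA in Hoxa and CTTTGTCCAGGAGGAGGCGCTGTAGGAC in Hoxd, with 27 and 28 bases.

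**Figure D4:**
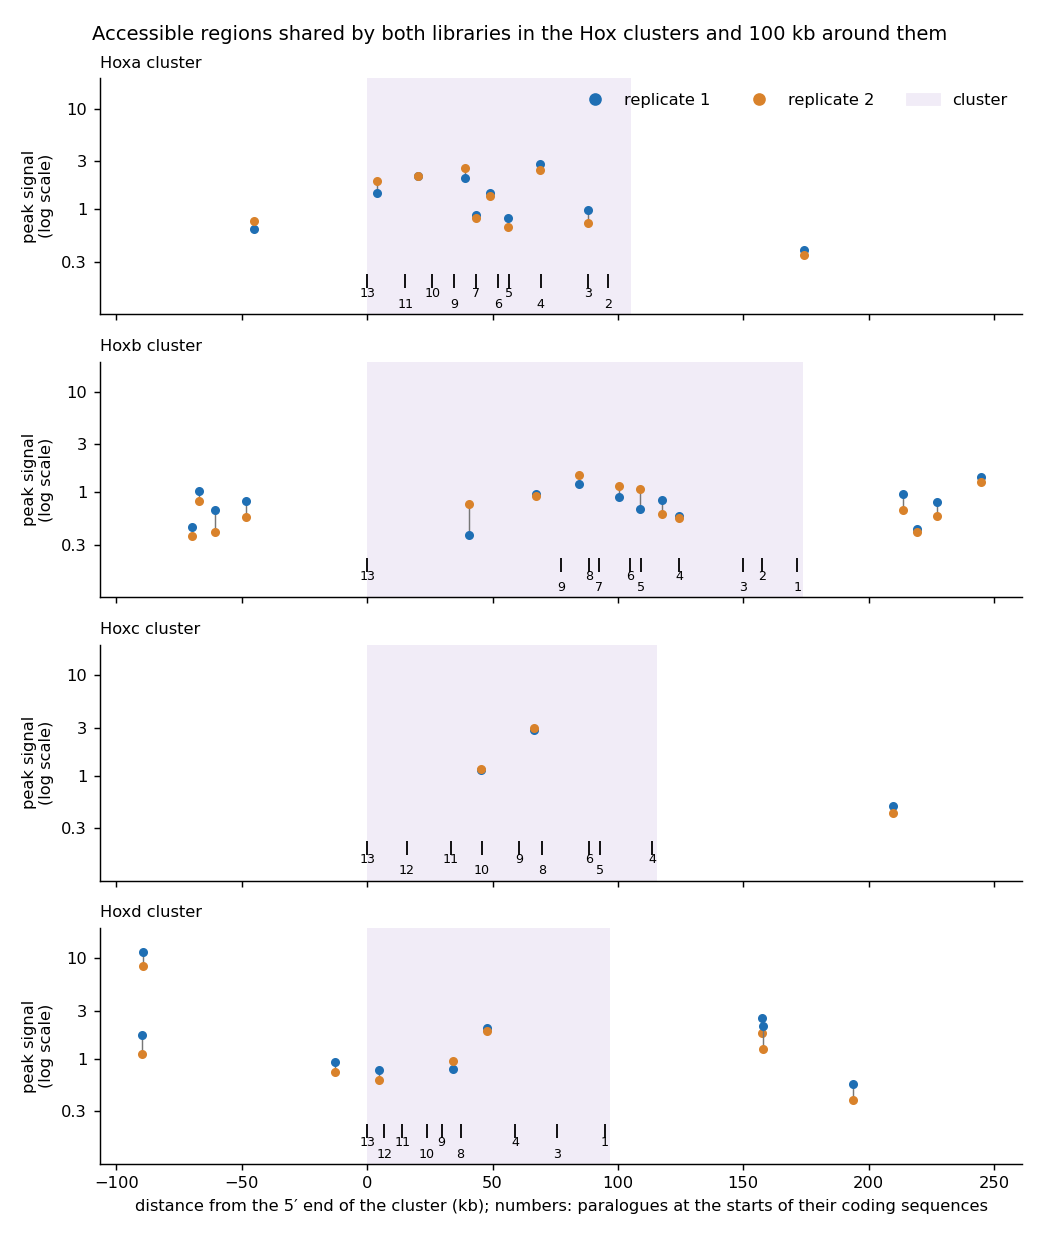
Signal of each shared region in both libraries (vertical axis, log scale) by distance from the 5′ end of the cluster (horizontal axis, kb), with 1 panel per cluster. Shading marks the cluster, and numbered ticks the coding starts of the paralogues. In the Hoxa cluster 8 of the 9 regions and 10 of the 11 coding starts are plotted, and Hoxc holds 2 regions. The strongest region, 11.5 in replicate 1 and 8.498 in replicate 2, lies outside the Hoxd cluster.

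Sequence motifs were counted in windows of 200 bp on the midpoints of the 21 cluster regions, on both strands, beside the share of all 60596 shared regions. A match is a string of letters and not a bound protein. CCAAT, the site of the NFY complex, was in 10 of 21 (47.6%), against 21.9% of all. In 0 of these 10 did it lie in a footprint of each library, which was not counted over all shared regions. GGGCGG was in 7 (33.3%), against 28.7%. TGTGGT, the RUNX core, was in 3 (14.3%), against 14.7%. TGACAG, the MEIS site, and AGGTCA, the half-site of nuclear receptors, were in 2 each (9.52%), against 13.99% and 10.1%. The YY1 string GCCATNTT was in 1 (4.76%), against 4.18%. No cluster region held TGATTNAT of PBX-HOX pairs (1.09% of all), AGATAA of GATA factors (8.72%), CCGGAAGT of ETS factors (2.12%) or GCGCNTGCG of NRF1 (3.79%).

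CTCF is a zinc-finger protein that anchors chromatin loops, and in mouse embryonic cells it is known to bind between Hox genes. The CTCF string CCANNAGGG was in 0 of the 21 regions, against 9.40% of all. Footprints of both libraries in 3 of the 7 regions printed above hold AGNNGGCNC, letters of another part of the CTCF site. Such letters were searched after the sequences had been seen, so the counts are a description. Near matches were not counted. AGNNGGCNC was in 10 of 21 (47.6%), against 25.7% of all, and in 7 of the 10 it lay in a footprint of each library. How often it lies in footprints over all shared regions was not counted. The letters had first been seen in footprints of some of these regions, so the 7 is no measure of CTCF binding. The stricter AGGTGGCGC was in 4 of 21 (19.05%), against 1.82% of all. Among these 4 were the region between Hoxa13 and Hoxa11, the Hoxb5 promoter and the region between Hoxc9 and Hoxc8. In 3 of them the string lay inside footprints of both libraries, and at the Hoxb5 promoter inside one of replicate 2.

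Around the clusters, the strongest accessible regions of Hoxd lay at promoters of neighbouring genes, and those of the other clusters did not. The strongest region within 100 kb of Hoxd had 11.5 in replicate 1 and 8.498 in replicate 2 and lay at the promoter of Lnpk, which encodes a protein of the endoplasmic reticulum. The other Hoxd neighbour with an open promoter, Mtx2, a gene of the mitochondrial outer membrane, had 2.56 in replicate 1 and 1.81 in replicate 2. Beside Hoxb, Ttll6 had 0.672 in replicate 1 and 0.405 in replicate 2, and the strongest region, with 1.41 and 1.26, lay 25.6 kb upstream of Skap1. Beside Hoxa the strongest had 0.629 in replicate 1 and 0.752 in replicate 2, 7.39 kb upstream of Evx1. Beside Hoxc the single region had 0.5 in replicate 1 and 0.421 in replicate 2, in an intron of D930007P13Rik. Of 10 other coding genes inside the clusters or within 100 kb of them, these 3 were open (30%), against 59.7% of all protein-coding genes. Calcoco2, Evx1, Evx2 and Skap1, beside the clusters, were not open. Nor were 5730596B20Rik and Gm28308 inside the Hoxa cluster and Gm28230 inside the Hoxd cluster, so the 30% does not describe the flanks alone. Gm28308 had the same peak of 0.409 in replicate 2 as Hoxa3.

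Long non-coding RNA genes inside the clusters were open in 4 of 18 cases, against 25.8% of 9793 such genes in the genome. Gm15050 had 0.968 in replicate 1 and 0.728 in replicate 2, from a region that covers the coding start of Hoxa3. Gm53, between Hoxb13 and Hoxb9, had 0.968 in replicate 1 and 0.911 in replicate 2. Hoxd3os1 was the highest, with the region given above. Hotair, Haglr, Hoxaas3, Hoxa11os, Hoxb3os and Hoxb5os were among those not open, as were Hottip and Halr1 beside the Hoxa cluster.

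No hairpin of the 7 microRNA genes annotated in the clusters had a shared region within 1 kb, against 13.2% of 2202 microRNA genes in the genome. A hairpin's start is not the start of its primary transcript, so this says nothing of where transcription begins. The mature microRNAs of the mir-10 and mir-196 families are shown, as RefSeq gives them on GRCm38.p6, because the clusters hold them in paralogous positions. Capitals mark the seed, bases 2 to 8.
miR-10a-5p, Hoxb: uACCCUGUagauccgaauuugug
miR-10b-5p, Hoxd: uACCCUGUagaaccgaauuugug
miR-196a-5p, Hoxb and Hoxc: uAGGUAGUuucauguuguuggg
miR-196b-5p, Hoxa: uAGGUAGUuuccuguuguuggg
miR-10a and miR-10b share the seed ACCCUGU, and miR-196a and miR-196b the seed AGGUAGU. The remaining ones were Mir615 in Hoxc and Gm44463 in Hoxd.

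Genes whose proteins work with HOX proteins were mostly open. Homeodomain proteins of the PBX, MEIS and PKNOX families bind DNA together with HOX proteins, and 8 of 9 such genes had an open promoter (88.9%), against the 59.7% of all genes given above. Pknox1 was strongest with 21.7 in replicate 1 and 19.5 in replicate 2, and Pbx3 followed with 21.4 in replicate 1 and 17.4 in replicate 2. Meis1, a partner of Hoxa9 in blood stem cells, had 2.40 in replicate 1 and 2.50 in replicate 2. Meis2 was not open, with a peak of 0.515 in replicate 2 alone. Pbx2, Pbx3, Pbx4 and Pknox1 were above every Hox promoter in both libraries, and Meis2, Meis3 and Pknox2 lay below 1.

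Regulators of Hox genes had a share of open promoters near that of all genes. Of 12 listed, 8 were open (66.7%), against 59.7% of all genes, with a median signal of 13.4 (6.05 to 24.1). Dot1l, a histone methyltransferase, was strongest with 26.9 in replicate 1 and 21.2 in replicate 2. Mllt1, a subunit of the complexes that recruit DOT1L, had 16.4 in replicate 1 and 14.4 in replicate 2. Kmt2a, a Trithorax-group methyltransferase of the Hox clusters, had 15.5 in replicate 1 and 15.1 in replicate 2. The closed ones were Cdx1, Cdx2 and Cdx4, homeodomain activators of Hox genes in the embryo, and the demethylase gene Kdm6b, whereas its relative Kdm6a was open with 15.6 in replicate 1 and 13.2 in replicate 2. Cdx1 had a peak of 0.452 in replicate 1, Cdx4 one of 0.184 and Kdm6b one of 0.691 in replicate 2, and Cdx2 had none.

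**Figure D5:**
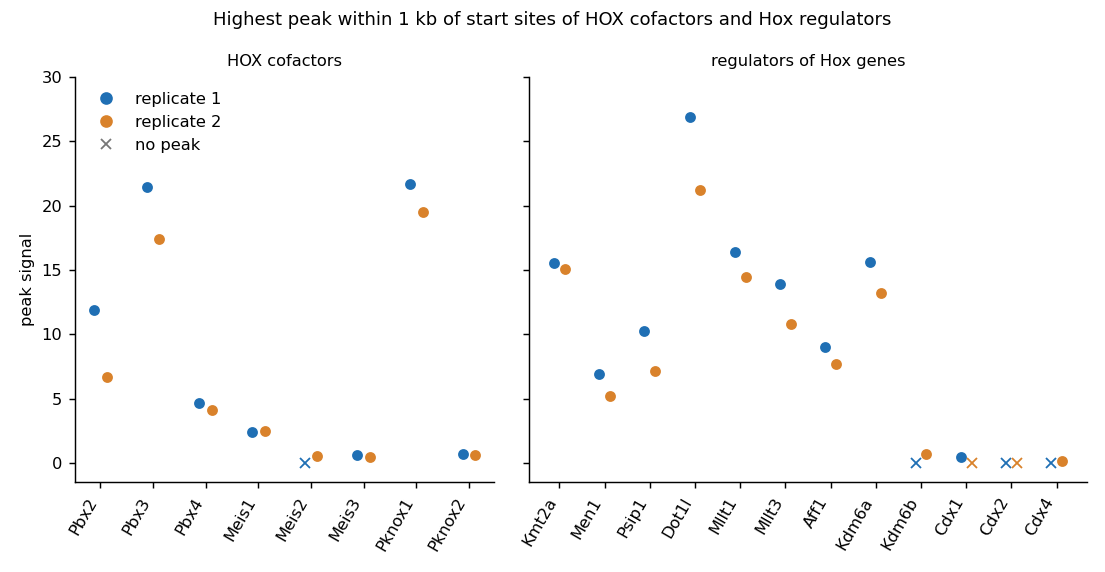
Signal of the highest peak within 1 kb of a start site (vertical axis) for the genes of HOX cofactors and of Hox regulators, with 1 colour per library. Crosses at 0 mark no peak in that library, and 1 gene is not plotted. Pknox1, Pbx3 and Dot1l lie above 17 in both libraries, and the Cdx genes below 1.

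Homeobox genes of the same class outside the clusters are given beside the Hox genes. Of 28 such genes, 12 were open (42.9%), against 59.7% of all genes. A stricter peak of each library was found at 4 of the 28, against 4 of 39 Hox genes and 54.8% of all genes. Few such peaks is thus a trait that the Hox genes share with this class. The 8 open Hox genes had a median signal of 1.00, against 0.565 over these 12 (0.306 to 4.36). The strongest were Hhex, a factor of blood and endoderm, with 4.30 in replicate 1 and 4.42 in replicate 2, and Nkx2-3, needed for spleen development, with 1.48 in replicate 1 and 1.88 in replicate 2. Those not open were Evx1, Evx2, Gsx2, Meox1, Gbx1, Mnx1, Tlx1, Tlx2, Tlx3, Nkx2-5, Dlx1, Dlx3, Dlx5, Dlx6, En1 and Emx1. Tlx1, needed for the spleen to form, had peaks of 0.349 in replicate 1 and 0.470 in replicate 2 that did not overlap.

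The libraries held 80323 peaks in replicate 1 and 88723 in replicate 2. The log2 ratio of replicate 2 over replicate 1 had a median of -0.05 over the 8 open Hox promoters, against -0.24 over all open promoters. Among the Hox genes, Hoxb5 (ratio 1.58) and Hoxc10 (1.02) were higher in replicate 2. Hoxa5 (0.810), Hoxa4 (0.869), Hoxa7 (0.925) and Hoxa10 (0.994) were lower. Inside the clusters 9 regions were higher and 12 lower in replicate 2, and in the flanks 1 was higher and 16 lower. Over all 60596 shared regions, 18835 were higher and 41761 lower. Of the cell type lists, B cell promoters were higher in replicate 2 in 6 of 6 cases, with a median of 0.41. Erythroid ones were lower in 8 of 8, with a median of -0.36, as were regulators of Hox genes in 8 of 8 (-0.29). Genes of the leukocyte, stem and progenitor, stroma and endothelial lists with a peak of each library had medians of -0.13, -0.11, -0.05 and -0.01. The part of cell types in the Hox ratios was not tested.

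The tissue label was checked against markers listed by cell type. Promoters were open for 8 of 8 erythroid, 6 of 6 B cell, 6 of 6 stem and progenitor, 2 of 3 leukocyte, 5 of 10 spleen stroma and 2 of 4 endothelial genes. Against 59.7% of all protein-coding genes, the stroma and endothelial lists (50% each) were lower and the leukocyte list (66.7%) was near. The leukocyte gene not open was Ptprc, with a peak of 0.396 in replicate 2 alone. Promoters were open for 0 of 4 hepatocyte, 0 of 3 kidney, 0 of 3 neuron, 0 of 3 T cell and 1 of 3 pancreas genes, the last being Pdx1 at 0.323 and 0.290. The open Hox promoters, with their median of 1.00, lay below the medians of the open erythroid (4.09), stem and progenitor (2.33), stroma (2.06) and B cell (1.49) promoters and above that of the 2 open endothelial ones (0.698). Which cells of the spleen carry the accessible Hox promoters was not measured.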

How the data were processed

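DNase-seq data of 2 libraries of 1 group were used. For each, the authors deposited 2 peak lists, footprints and positions with an FDR, on mm10 per the file headers and listing. Peaks were listed per library, with a deposited signal whose scale is not stated. The position lists hold the authors' FDR (q-value) and only values below 0.05, and footprints carry 0.01 in every line. The aligner, callers and versions, and the placing of reads with CAST/EiJ alleles, were not given in the sources used here, and no read totals were used, so no counting interval is given.

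Start sites came from the basic set of GENCODE M21 (41525 for 21938 protein-coding genes, 55 for the 39 Hox genes) and sequences from RefSeq GRCm38.p6. Peaks of both libraries with at least 1 bp of overlap were merged into shared regions, and signal is the highest peak per library. Midpoints placed regions in clusters and gave distances. CpG-rich means an observed over expected ratio of at least 0.5. Errors are the SD of 2 libraries. No statistical test was made, since 1 group allows none.

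The Hox genes, lists and 11 of 13 motifs were chosen with earlier results of these data known. The last 2 motifs and the position between paralogues 9 and 8 were chosen after these values were seen. Named were all members with an open promoter or a peak in 1 library, and the strongest regions of each cluster and flank. Of each list except the cell type markers, the 2 strongest and the closed genes were named. A few items that this rule names are not reported here. Promoter calls were tested on simulated data. Alternatives were each library alone, the stricter list, reciprocal overlap, peaks above the median signal, other windows, flanks and distances, 1 start site per gene and all annotated transcripts. Python 3.11.15 was used.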

Additional observations from a re-analysis of the deposited data

How the results depend on the processing

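Over 10 alternatives the number of open Hox promoters ran between 4 and 12 of 39. It was 9 without replicate 1, 11 without replicate 2, 4 with the stricter peak list, 8 with a window of 500 bp and 12 with one of 2500 bp. The percentage over all protein-coding genes ran between 52.2% and 62.8% in the same alternatives. Hoxa4 and Hoxc10 were among those open in 10 of 10. Hoxa7 was closed with the stricter list and Hoxa10 with 1 start site per gene. Hoxa5, Hoxb4 and Hoxb5 were each closed in 2 or 3. With all annotated transcripts Hoxc5 was open as well. Hox promoter signal had a median of 1.64 with the stricter list, which left 4 promoters. Open promoters of HOX cofactors, 8 of 9 above, ran between 6 and 9 over the 10 alternatives. They numbered 6 with the stricter list, with peaks at or above the median signal and with 1 start site per gene. All protein-coding genes were then open in 54.7%, 52.2% and 55.7%.

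The median number of shared regions within 50 kb, 4, became 2 with the stricter list, 3 with reciprocal overlap and 2 with peaks above the median signal. It was 2 within 25 kb and 7 within 100 kb. Regions of the clusters with their flanks, 11 for Hoxa, 15 for Hoxb, 3 for Hoxc and 9 for Hoxd, fell with the stricter list to 6 for Hoxa and 7 for Hoxb, and with peaks above the median signal to 6 for Hoxb. With no flank they were 7 for Hoxb and 3 for Hoxd, and with flanks of 200 kb 21 for Hoxc. The Hoxc count was 4 without replicate 1 and 6 without replicate 2. The causes were not tested beyond what fewer peaks or other distances give by construction. No paired analysis was possible because both libraries belong to 1 group.

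With 2 libraries the spread rests on a single difference per gene, and the reads behind a peak are unknown. A closed promoter is one without a region shared by both libraries, and some closed promoters had a listed peak. Weak accessibility below the authors' limit was not measurable here.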
